A study of Mus musculus with 12 samples.

Results

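A set of 40 genes of ribosome biogenesis and of the Myc family was chosen by name. Of these, 39 were found among the 22609 genes of the deposited count tables, and the other, Noc2l, was not analysed here. The 39 genes were described over mouse adherent neural stem (ANS) cells, neural stem cells grown as a monolayer and led in culture towards GABAergic neurons. Embryo age was E14.5 in all groups, all libraries were of polyA RNA, and the labels name no genetic change (the headers of the FPKM table carry wt). At T0 (3 libraries) the cells proliferated in a medium with 20 ng/ml FGF2, 20 ng/ml EGF and 1% N2 supplement. At T1 (3 libraries) they had been for 2 days in medium D1, which holds 10 ng/ml FGF2, 2 ng/ml EGF, 0.5% N2 and 1% B27. At T2 (4 libraries) and T3 (2 libraries, replicates 1 and 4) they had been for 2 and 10 days, respectively, in medium B, with 10 ng/ml FGF2, 20 ng/ml BDNF, 0.5% N2 and 1% B27 and without EGF. The study's text can also be read as 10 days more after T2, and the days given here are those of the labels. Growth factors, supplements, replating and time changed together, so their parts cannot be told apart. FGF2 was present in every group, so T3 is not a condition free of mitogen. The submitters call the replicates biological, but no source used here says whether they came from separate cultures or embryos, so the p-values measure the spread between these libraries only. In such bulk samples fewer cells of a type and less RNA per cell cannot be told apart.

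Each library held between 8910724 and 16631614 counts on genes, with a median of 12601169. One library stood apart from its group. T0 replicate 3 differed from T0 replicates 1 and 2 by a chi-square per gene of 101 and 105, whereas replicates 1 and 2 differed by 3.28. The 39 genes were involved in that difference. They took 0.592% of the counts in the lowest T0 library and 0.989% in T0 replicate 3. Of the 38 genes with enough counts for a test, 38 were higher in T0 replicate 3 than in the mean of the other two libraries, with a median ratio of 1.86 (range 1.08 to 2.44). The median ratio over all genes was 1. For this reason the counts of genes called against T0 are given with and without that library, as are the values of single genes that moved with it. The labels treat it like the other T0 libraries. In T0 replicate 3, 13.3% of uniquely aligned reads lay outside genes, the lowest share of the 12 libraries. Its 38.96% of entries that aligned to several places was the highest share. T0 replicates 1 and 2 had 19.56% and 19.95% outside genes, and 34.04% and 34.56% at several places. The source of the difference between the T0 libraries was not tested.

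Ribosomes are made in the nucleolus, where RNA polymerase I (Pol I) transcribes the precursor of most ribosomal RNA. Small nucleolar ribonucleoproteins (snoRNPs) then modify that RNA, and assembly factors fold it, cut it and join it to ribosomal proteins to form the small and the large subunit. Growing and dividing cells make many ribosomes, and the transcription factor Myc, bound to DNA with its partner Max, is known to raise transcription of many of these genes.

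Myc and Max bind the E-box CACGTG, a palindrome that reads the same on both strands. To show where these letters lie, the windows from 250 bases before to 50 bases after the RefSeq start sites (GRCm38.p6) were searched. Of the 39 genes, 33 had such a promoter in the table, and 7 of them (21.2%) held the motif, beside 11.9% of the genes tested in the comparison of T1 with T0 that had a promoter. Counted by promoter, 17.5% of 40 promoters of these genes held it, 7.15% of all 32851 promoters and 9.94% of the promoters of tested genes. The median GC content was 59.7% in the promoters of the 33 genes and 61.3% in those of the tested genes. The 7 genes were Pes1, Nop2, Mybbp1a, Wdr43, Utp20, Tsr1 and Rrn3. They are named because the genes with the motif include some that fell and one, Rrn3, that passed no test of a comparison with T0, and a match is a description of letters and not of binding. Myc is among the 6 genes with no promoter in the table. Below, each motif is in capitals with 10 bases on each side, 5′ to 3′ on the strand of the gene, and Rrn3 has a pair of motifs. The motifs of Mybbp1a and Utp20 lie too near the end of the window for 10 bases after them and are not printed.
Pes1, chr11:3963967-3963992, plus strand, motif from base 3 after the start: ctaggcagggCACGTGcgggaggaag
Nop2, chr6:125131813-125131838, plus strand, 60 bases before the start: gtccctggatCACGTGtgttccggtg
Wdr43, chr17:71616222-71616247, plus strand, motif from base 18: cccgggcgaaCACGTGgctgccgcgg
Tsr1, chr11:74898094-74898119, plus strand, motif from base 25: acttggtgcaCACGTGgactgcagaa
Rrn3, chr16:13780474-13780499, plus strand, 215 bases before the start: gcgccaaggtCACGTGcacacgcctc
Rrn3, chr16:13780641-13780666, plus strand, 48 bases before the start: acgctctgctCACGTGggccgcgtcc

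As a group, the genes were lower after the change of medium, stayed near that level at T2 and lay in between at T3. Calls below are from edgeR's quasi-likelihood test with Benjamini-Hochberg adjustment over all genes tested, at an adjusted p of 0.05. At T1, 21 of 38 genes fell against T0, where 16.8% of all genes tested fell, and 0 rose (0 also at an unadjusted p of 0.05 and with DESeq2). All T1 libraries lay below all T0 libraries for 33 genes, beside 28% of all genes. At T2, 28 fell, beside 21.8% of all genes, 0 rose (0 also unadjusted and with DESeq2), and the libraries of 32 lay wholly below those of T0, beside 27.2%. At T3, 1 gene, Polr1c, fell, beside 1.41% of all genes, 0 rose (0 unadjusted and with DESeq2), and the libraries of 24 lay wholly below, beside 25.8%. The median log2 fold change of the 38 genes was -0.885 at T1 and -0.878 at T2, and at T3 it was -0.6, whereas the median over all genes lay between -0.0149 and 0.0023. These comparisons share the T0 libraries, so they are not independent of each other.

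**Figure D1:**
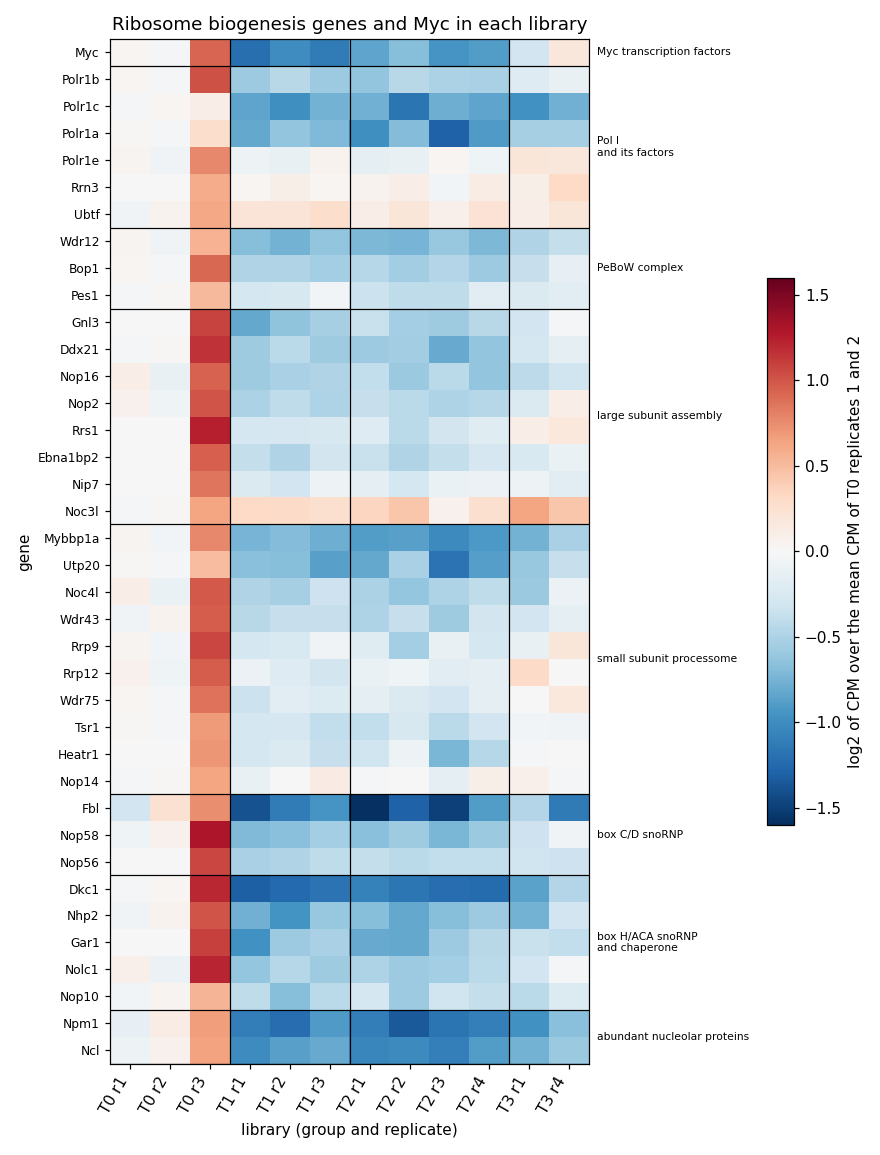
Heat map of 38 genes (rows, by role) in 12 libraries (columns), coloured by the log2 of CPM (counts scaled to library size) over the mean of T0 replicates 1 and 2. The column of T0 replicate 3 is red for all 38 genes, most cells of T1 and T2 are blue, and those of T3 are paler.

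Without T0 replicate 3 the differences were smaller and the calls more numerous at T1. The median log2 fold change moved to -0.504 at T1 and -0.472 at T2, and for T3 it moved to -0.182. In the T1 comparison 29 genes then fell (24.9% of all genes did) and 2, Ubtf and Noc3l, rose (25.2% of all genes did). At T2, 28 fell (25.3%) and 1, Noc3l, rose (26.7%). At T3, 6 fell (8.49%), namely Polr1c, Polr1a, Npm1, Ncl, Mybbp1a and Dkc1, and 1, Noc3l, rose (9.94%). The count at T1 also rested on the number of T1 libraries, since 7, 6 and 9 genes fell when T1 replicate 1, 2 or 3 was left out. Lower calls over all genes dropped too, from 2078 of 12364 to 983 of 12542, 940 of 12528 and 1215 of 12536.

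**Figure D2:**
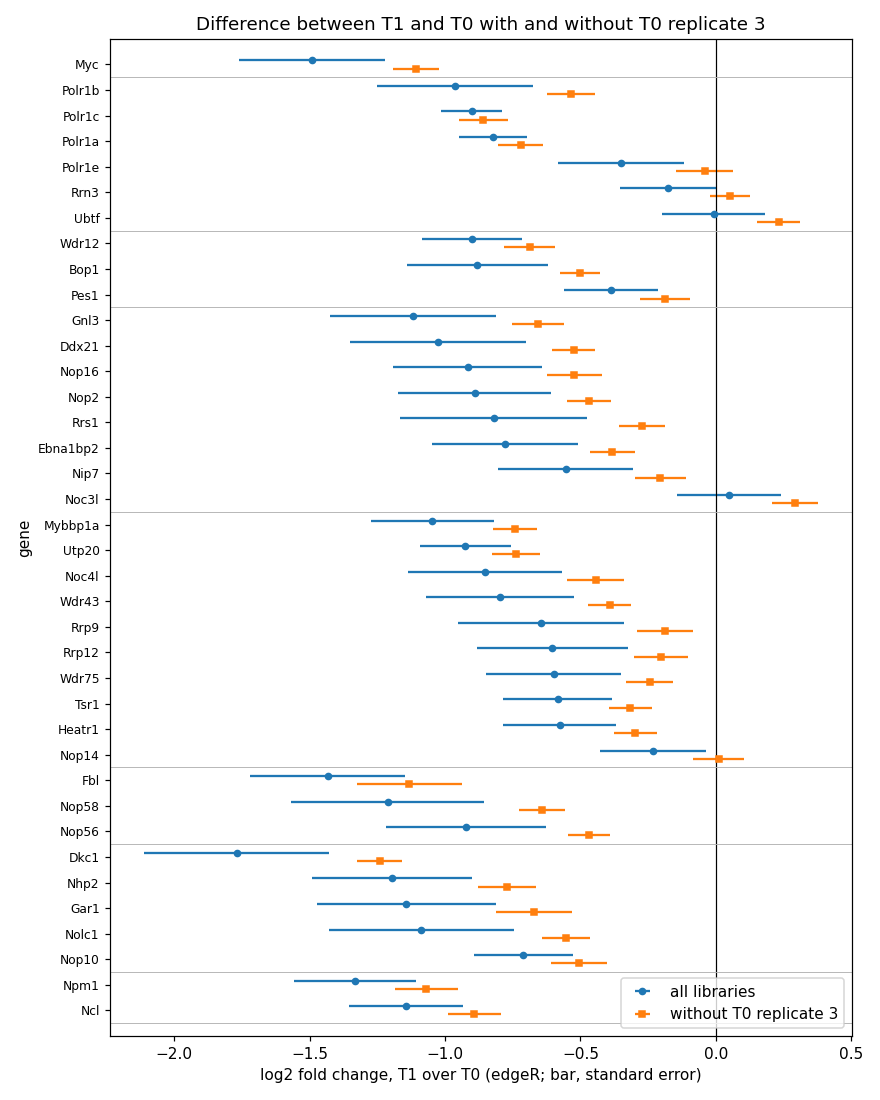
Log2 fold change of T1 over T0 for 38 genes with its standard error, with all libraries (circles) and without T0 replicate 3 (squares). The squares lie to the right of the circles for all 38 genes, with shorter bars, and Dkc1 is the lowest in both.

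Myc (chr15:61816946-61821929, plus strand, mm9), the transcription factor, fell to 0.356 of its T0 level at T1. It had 242, 232.5 and 452 CPM (counts scaled to library size, with library sizes scaled by edgeR's TMM factors) in the T0 libraries and 103, 119 and 110 at T1. Every T1 library was below every T0 library, also without T0 replicate 3. The log2 fold change was -1.49 ± 0.27 (SE; edgeR, adjusted p = 0.00782) and, without that library, -1.11 ± 0.08 (edgeR, adjusted p = 1.42e-05). At T2 it had 133, 148, 123 and 127 CPM, a log2 fold change against T0 of -1.20 ± 0.23 (edgeR, adjusted p = 0.0038). These falls at T1 and T2 passed the test in 14 of 14 and 15 of 15 alternative settings. At T3 the libraries held 192 and 269 CPM, within reach of T0 replicates 1 and 2. The log2 fold change of T3 against T0 was -0.41 ± 0.35 (edgeR, adjusted p = 0.503), and without T0 replicate 3 it was -0.03 ± 0.18 (edgeR, adjusted p = 0.93). Mycn (chr12:12942902-12948720, minus strand, mm9), the relative of Myc that is known for driving growth of neural precursors in the embryo, was nearly absent from these cells. It had between 0.061 and 0.488 CPM over all 12 libraries, too few counts for a test.

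Pol I and its factors split. The subunits Polr1a and Polr1b, which form the core of the enzyme, and Polr1c, which Pol I shares with Pol III, fell at T1 and at T2. The initiation factors Rrn3 and Ubtf, which bring the polymerase to the ribosomal RNA genes, and the subunit Polr1e passed no test with all libraries.

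Polr1c (chr17:46380869-46385003, minus strand, mm9) was the least affected by T0 replicate 3. It had 103, 108 and 114 CPM at T0, 58.5, 53.2 and 62.1 at T1, 61.8, 46.8, 61.1 and 58.7 at T2, and 53.5 and 61.8 at T3. The 9 later libraries lay in a narrow band below the T0 libraries. The log2 fold changes were -0.90 ± 0.11 at T1 (edgeR, adjusted p = 0.00193), -0.90 ± 0.12 at T2 (edgeR, adjusted p = 0.000725) and -0.89 ± 0.15 at T3 (edgeR, adjusted p = 0.0394). It was the one gene of the 38 that fell at T3 with all libraries; without T0 replicate 3 its T3 value was -0.85 ± 0.12. That call at T3 was lost when T0 replicate 1 or 2, or either T3 library, was left out, with 0 genes called each time.

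Polr1a had 167, 161 and 198.5 CPM at T0 and 92.6, 106 and 100 at T1. It fell by 0.82 ± 0.12 on the log2 scale at T1 (edgeR, adjusted p = 0.00392). At T2 it had 82.8, 101.5, 66.7 and 87.4 CPM and at T3 114 and 113, all below T0. Polr1b had 63.9, 60.8 and 126 CPM at T0 and 41.8, 45.9 and 41.5 at T1, a log2 fold change of -0.96 ± 0.29 that was -0.53 ± 0.09 without T0 replicate 3. Polr1a had -0.72 at T1 without that library, so it moved less than Polr1b.

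Ubtf had 248, 268 and 395 CPM at T0, 297.5, 299 and 313 at T1, 278, 296, 273 and 304 at T2, and 278 and 296 at T3. The T1 libraries lay above T0 replicates 1 and 2 and below T0 replicate 3. Its log2 fold change at T1 was -0.01 ± 0.19 (edgeR, adjusted p = 0.977) with all libraries and 0.23 ± 0.08 (edgeR, adjusted p = 0.0394) without T0 replicate 3, so its direction turned with that library. Rrn3 had 129, 131 and 196 CPM at T0, 133, 139 and 133 at T1, 136, 140.0, 127 and 141 at T2, and 139 and 163 at T3. Its log2 fold change was -0.18 ± 0.18 at T1 (0.05 ± 0.07 without T0 replicate 3) and 0.01 ± 0.23 at T3. Polr1e, with 26.8 to 47.2 CPM at T0, had -0.35 ± 0.23 at T1, and -0.04 ± 0.10 without that library.

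**Figure D3:**
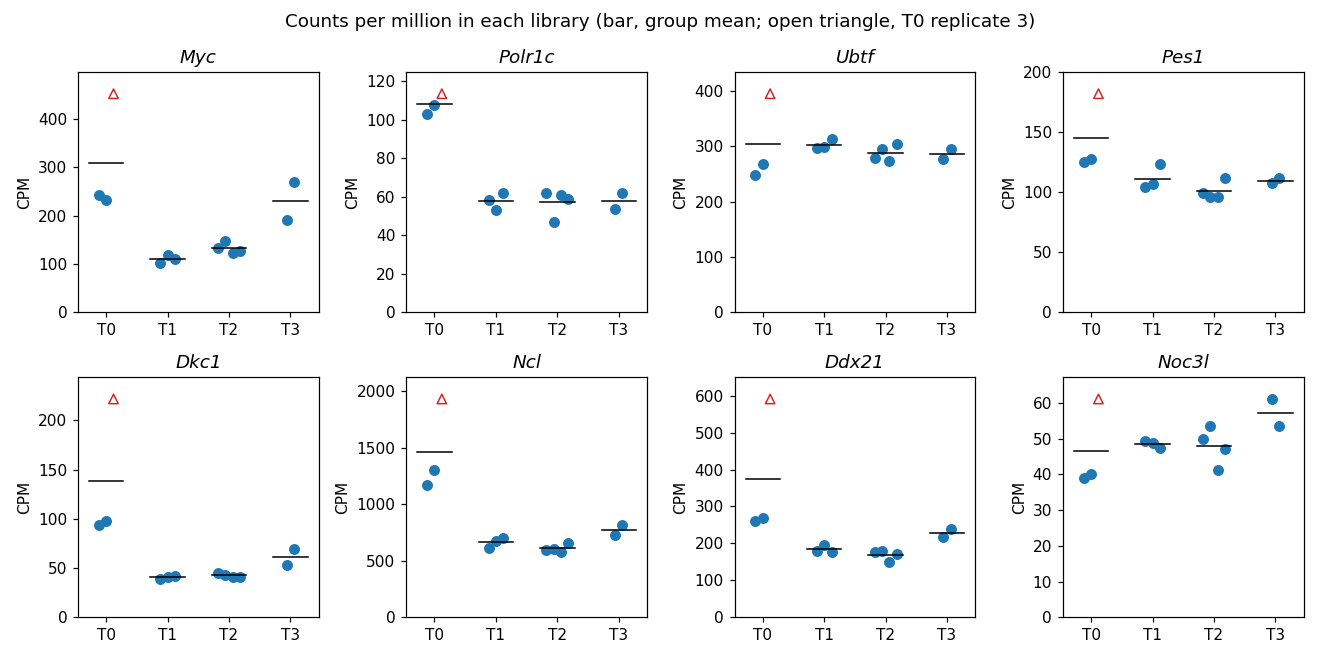
CPM in each of 12 libraries for 8 genes, with the group mean as a bar and T0 replicate 3 as an open triangle. Myc, Polr1c, Pes1, Dkc1, Ncl and Ddx21 have all T1 and T2 points below the T0 points, while Ubtf and Noc3l overlap.

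The PeBoW complex of Pes1, Bop1 and Wdr12 is needed to mature the ribosomal RNA of the large subunit. Pes1 (chr11:3863978-3880007, plus strand, mm9) had 125.5, 128 and 182 CPM at T0, 104, 106.5 and 123 at T1, 99.5, 95.5, 95.6 and 112 at T2, and 107.5 and 112 at T3. All later libraries lay below all T0 libraries, but T1 replicate 3 came close to T0 replicate 1. The log2 fold change was -0.39 ± 0.17 at T1 (edgeR, adjusted p = 0.127), -0.51 ± 0.15 at T2 (edgeR, adjusted p = 0.0239) and -0.39 ± 0.21 at T3 (edgeR, adjusted p = 0.298). Without T0 replicate 3 these were -0.19 ± 0.09, -0.31 ± 0.09 (edgeR, adjusted p = 0.0126 at T2) and -0.19 ± 0.10. Pes1 thus fell at T2 in both fits.

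Its partners moved further. Bop1 (chr15:76283426-76307699, minus strand, mm9) had 172.5, 166 and 320 CPM at T0, 122, 122 and 116 at T1, 124, 115, 123 and 113 at T2, and 131 and 155 at T3. It fell by 0.88 ± 0.26 on the log2 scale at T1 (edgeR, adjusted p = 0.0399) and by 0.87 ± 0.22 at T2 (edgeR, adjusted p = 0.0138). Bop1 had -0.50 at both times without T0 replicate 3 and was still called. Wdr12 (chr1:60133712-60155489, minus strand, mm9) had 44.1, 41.2 and 62.6 CPM at T0, 26.6, 25.3 and 27.6 at T1, 25.8, 25.5, 28.1 and 25.9 at T2, and 30.7 and 32.7 at T3. It fell by 0.90 ± 0.18 at T1 (edgeR, adjusted p = 0.0118), which was -0.69 ± 0.09 without T0 replicate 3. For both, the T3 libraries lay between those of T2 and T0, with log2 fold changes against T0 of -0.61 ± 0.33 and -0.62 ± 0.23 that missed the threshold. In one fit of all 12 libraries Wdr12 was called at T3 (-0.64; edgeR, adjusted p = 0.0161).

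The 3′UTR of Pes1 was among those the study measured by PCR, and the primers used for it show what a count per gene can hold. They are printed 5′ to 3′, in lower case, and were placed on mm9 by exact match. The first pair lies in coding sequence of exons 13 and 15 of a transcript of 15 exons, at chr11:3877751-3877768 and chr11:3878857-3878876. The second lies in the 3′UTR in exon 15, at chr11:3879301-3879320 and chr11:3879376-3879395, starting 391 bases past the last coding base.
Pes1 Pre forward: ctttcggccttggagcag
Pes1 Pre reverse: ctcacagcatcatcatgggc
Pes1 Post forward: taggactcccgagttcaagg
Pes1 Post reverse: ctgagctgaaacaggaacca
A count of Pes1 sums reads from short and long forms alike, so the values above say nothing of the length of its 3′UTR.

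Of the 8 large-subunit assembly factors tested, 4 fell at T1 and 5 at T2, beside 16.8% and 21.8% of all genes, and without T0 replicate 3 these were 6 and 6, beside 24.9% and 25.3%. Gnl3, or nucleostemin, a nucleolar GTPase known from stem cells, had 115, 114 and 243 CPM at T0, 65.2, 73.8 and 79.8 at T1, 89.9, 78.6, 77.8 and 84.3 at T2, and 93.1 and 113 at T3. It fell by 1.12 ± 0.31 on the log2 scale at T1 (edgeR, adjusted p = 0.0325; -0.66 ± 0.10 without T0 replicate 3). Noc3l, an export factor of the large subunit, ran the other way. It had 38.9, 40.1 and 61.1 CPM at T0, 49.3, 48.8 and 47.3 at T1, 50.1, 53.6, 41.3 and 47.0 at T2, and 61.1 and 53.6 at T3. The T1 libraries lay above T0 replicates 1 and 2 and below T0 replicate 3, so its log2 fold change was 0.05 ± 0.19 with all libraries and 0.29 ± 0.08 without that one (edgeR, adjusted p = 0.0184). Nop16 had 48.7, 41.5 and 86.9 CPM at T0, 30.5, 31.4 and 32.3 at T1, and 33.6 and 36.1 at T3, with a log2 fold change of -0.92 ± 0.28 at T1 (edgeR, adjusted p = 0.0426; -0.52 ± 0.10 without T0 replicate 3). The RNA helicase Ddx21 and the ribosomal RNA methyltransferase Nop2 also fell at T1, by 1.03 and 0.89 on the log2 scale, and had -0.52 and -0.47 without T0 replicate 3. Ebna1bp2 (-0.78 at T1) fell at T2, by 0.75, and was called at T1 (-0.38) and T2 (-0.35) without that library. Rrs1 (-0.82 at T1, -0.81 at T2) and Nip7 (-0.55 and -0.49) passed neither test with all libraries. Rrs1 was called at both times without T0 replicate 3, with -0.27 and -0.26, and Nip7 was not.

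The small-subunit processome cuts and folds the precursor of the small-subunit RNA. Of the 10 genes tested that were grouped with it here, not all of them parts of it, 2 (Mybbp1a and Utp20) fell at T1. That is a share near the 16.8% of all genes, and 6 fell at T2, beside 21.8%. Without T0 replicate 3 these were 7 and 5, beside 24.9% and 25.3%. Mybbp1a, a nucleolar protein that also binds Myb, had 601, 569 and 994 CPM at T0, 348.5, 363 and 340 at T1, 315, 320.4, 289.6 and 309 at T2, and 348 and 408 at T3. No later library reached the lowest T0 library. Its log2 fold changes were -1.05 ± 0.23 at T1 (edgeR, adjusted p = 0.0148), -1.21 ± 0.19 at T2 (edgeR, adjusted p = 0.00167) and -0.92 ± 0.30 at T3 (edgeR, adjusted p = 0.121). Nop14 lay at the other end. It had 68.8, 70.8 and 108 CPM at T0 and 64.5, 70.3 and 76.3 at T1, 69.1, 69.4, 63.1 and 74.8 at T2, and 73.8 and 68.4 at T3. Its log2 fold change at T1 was -0.23 ± 0.20 with all libraries and 0.01 ± 0.09 without T0 replicate 3. Utp20 fell at T1 and T2, by 0.92 and 1.00 on the log2 scale. Noc4l, Wdr43, Heatr1 and Tsr1 fell at T2, by 0.89, 0.81, 0.64 and 0.60, and had values of -0.85, -0.80, -0.58 and -0.58 at T1. Their T2 values without T0 replicate 3 were -0.49, -0.41, -0.36 and -0.33, and Heatr1 lost its call at T2 (edgeR, adjusted p = 0.0631). At T1 all 4 were then called, with -0.44, -0.39, -0.30 and -0.32. Rrp9, Rrp12 and Wdr75 had -0.65, -0.60 and -0.60 at T1 and passed no test at T1 or T2 with all libraries. Without that library they had -0.19, -0.20 and -0.24, and Wdr75 was called at T1 (edgeR, adjusted p = 0.044).

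The box C/D snoRNP methylates ribosomal RNA through its enzyme fibrillarin (Fbl), with the core proteins Nop56 and Nop58. Fbl had 15.6, 22.9 and 32.2 CPM at T0, 7.33, 8.89 and 10 at T1, 6.40, 7.87, 6.83 and 10.3 at T2, and 13.9 and 8.83 at T3. It fell by 1.43 ± 0.29 on the log2 scale at T1 (edgeR, adjusted p = 0.0111; -1.13 ± 0.19 without T0 replicate 3). Nop58 had 140, 153 and 358 CPM at T0, 89.6, 92.0 and 100 at T1, 92.3, 98.4, 88.6 and 97.2 at T2, and 116 and 141 at T3. It fell by 1.21 ± 0.36 at T1 (edgeR, adjusted p = 0.0402) and by 0.64 ± 0.09 without T0 replicate 3. Nop56 had 110, 110.5 and 231 CPM at T0, 76.9, 79.1 and 83.0 at T1, 84.3, 81.4, 83.5 and 83.7 at T2, and 88.2 and 87.7 at T3. Its log2 fold change of -0.92 ± 0.30 at T1 missed the threshold (edgeR, adjusted p = 0.0524), and at T2 it fell by 0.84 ± 0.25 (edgeR, adjusted p = 0.0266). Nop56 was called at both times without T0 replicate 3, with -0.47 at T1 (edgeR, adjusted p = 0.00116) and -0.39 at T2.

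The box H/ACA snoRNP turns uridines of ribosomal RNA into pseudouridine. Of its genes tested together with the chaperone Nolc1, 5 of 5 fell at T1 and at T2, beside 16.8% and 21.8% of all genes. Without T0 replicate 3 it was again 5 of 5 at both times, beside 24.9% and 25.3%. Dkc1 (chrX:72341193-72355116, plus strand, mm9), the enzyme dyskerin of this snoRNP, had 93.9, 98.1 and 222 CPM at T0, 38.9, 40.7 and 42.3 at T1, 45.5, 43.0, 41.1 and 40.9 at T2, and 53.1 and 69.1 at T3. All T1 libraries were under 0.5 times the lowest T0 library. The log2 fold change of -1.77 ± 0.34 at T1 (edgeR, adjusted p = 0.00976) was the lowest of the 38 genes and was -1.24 ± 0.08 without T0 replicate 3. It was -1.68 ± 0.29 at T2 (edgeR, adjusted p = 0.00227) and -1.16 ± 0.43 at T3 (edgeR, adjusted p = 0.162; without T0 replicate 3, -0.64 ± 0.16 and adjusted p = 0.0496). Nop10, the smallest partner of dyskerin, had 87.7, 93.2 and 131 CPM at T0, 68.2, 56.3 and 66.9 at T1, 74.2, 60.5, 72.5 and 69.7 at T2, and 67.0 and 77.4 at T3. Its fall of 0.71 ± 0.18 at T1 (edgeR, adjusted p = 0.026) was the smallest of the 5. The partners Gar1 and Nhp2 and the chaperone Nolc1 fell at T1 by 1.14, 1.20 and 1.09 on the log2 scale, and without T0 replicate 3 had -0.67, -0.77 and -0.55.

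Nucleolin (Ncl) and nucleophosmin (Npm1), abundant proteins of the nucleolus that act in transcription, chaperoning and export of ribosomes, fell at T1 and T2. Ncl had 1168, 1299 and 1930 CPM at T0, 616, 676 and 704 at T1, 598, 607, 576 and 662 at T2, and 730 and 819 at T3. Its log2 fold changes were -1.14 ± 0.21 at T1 (edgeR, adjusted p = 0.00822), -1.25 ± 0.18 at T2 (edgeR, adjusted p = 0.000935) and -0.90 ± 0.27 at T3 (edgeR, adjusted p = 0.104). Npm1 had 468, 554 and 814 CPM at T0, 238, 220 and 274 at T1, 237, 201.5, 228 and 240.1 at T2, and 260 and 322 at T3. It fell by 1.33 ± 0.22 at T1 (edgeR, adjusted p = 0.00594; -1.07 ± 0.11 without T0 replicate 3). In the deposited FPKM values, Npm1 stood at 601 ± 213 at T0 (SD, n = 3), above Ncl at 130 ± 46 and Myc at 136 ± 62. Noc3l stood at 8.79 ± 3.09 and Mycn at 0.129 ± 0.014. The tool behind those values is not given. In CPM the T0 mean of Ncl (1465) lay above those of Npm1 (612) and Myc (309), so the order of Npm1, Ncl and Myc depends on the measure.

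Copies in the genome limit some of these levels. Coding sequences of the 39 genes were aligned to mm9, and 4 of them had another match of at least 95% identity over at least 50% of their length: Fbl (1 copy, 99.5%), Npm1 (4 copies, up to 98.2%), Wdr12 (1 copy, 97.7%) and Pes1 (2 copies, up to 96.7%). Reads that fit both places equally were not counted for either, so the levels of these 4 genes are uncertain. Matches also had to reach a minimum aligned length, so a copy of a gene with a very short coding sequence could be missed. Exons of Tsr1 overlap those of Srr over 1030 bases, and the strand setting of the counting is not given in the sources used here, so their reads there cannot be told apart.

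From T1 to T2 none of the genes was called. With edgeR 0 of 38 fell, beside 0.0565% of all genes, and 0 rose, beside 0.573%. At an unadjusted p of 0.05, 1 was lower (Mybbp1a) and 1 higher (Myc), and with DESeq2 0 passed in either direction. The median log2 fold change was -0.00221. Values ran from -0.23 ± 0.12 for Polr1a to 0.28 ± 0.09 for Myc, whose 4 T2 libraries all lay above its 3 T1 libraries (edgeR, adjusted p = 0.24).

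**Figure D4:**
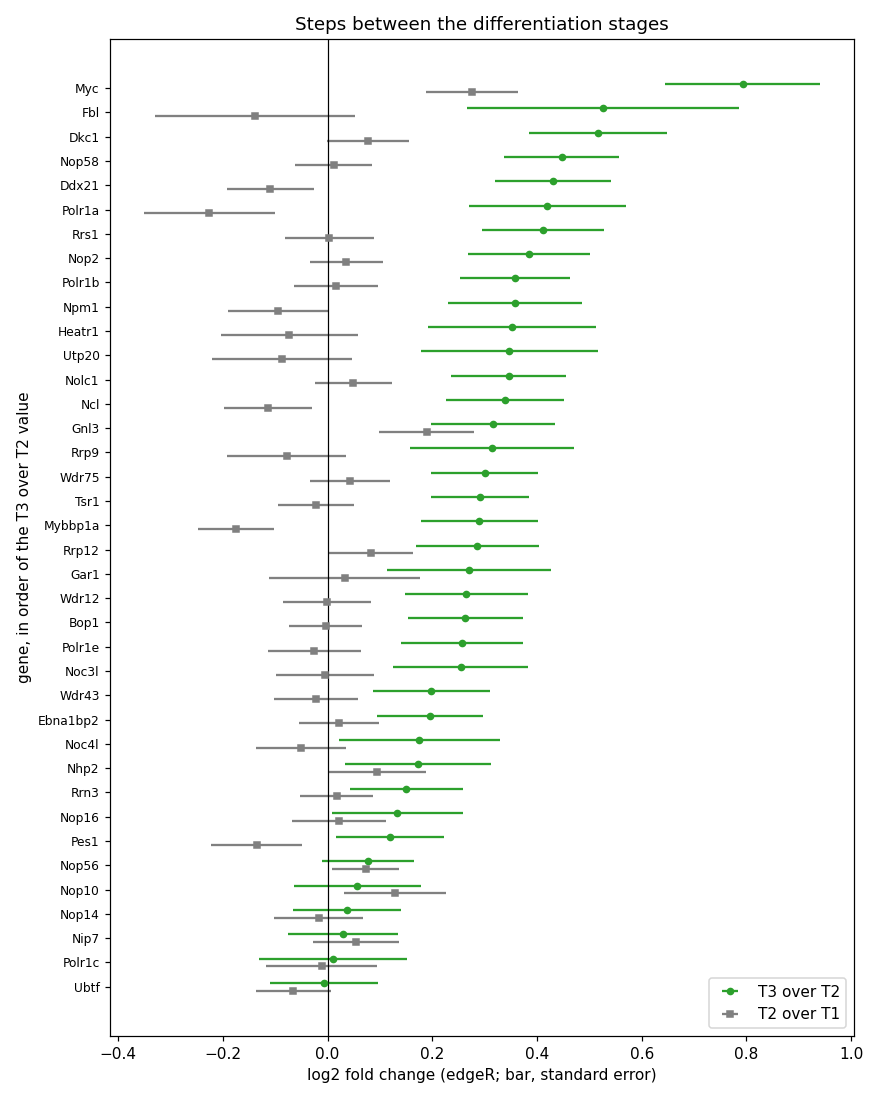
Log2 fold changes with standard errors of T3 over T2 (circles) and T2 over T1 (squares) for 38 genes, in order of the first. The circles lie right of 0 for 37 genes with Myc at the top, and the squares scatter around 0.

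From T2 to T3 the genes leaned upwards, and 1, Myc, rose. The log2 fold change was above 0 for 37 of 38 genes, with a median of 0.288, while the median of all genes was 0.00659. Both T3 libraries lay above all T2 libraries for 24 genes, beside 13.6% of all genes, and 0.5% of all genes rose. At an unadjusted p of 0.05, 17 were higher and 0 lower, where 2144 of all 12599 genes passed in either direction. DESeq2 called 4 higher, beside 440 of 12599 genes. Myc rose from 123 to 148 CPM at T2 to 192 and 269 at T3, by 0.79 ± 0.15 on the log2 scale (edgeR, adjusted p = 0.0492). That call was kept in 3 of 13 alternative settings, whose adjusted p ran from 0.000264 to 0.255. The log2 fold change of Myc was 1.02 without T3 replicate 1 and 0.52 without T3 replicate 4, each time with 1 library left at T3. Next in size were Fbl (0.53 ± 0.26), Dkc1 (0.52 ± 0.13), Nop58 (0.45 ± 0.11) and Ddx21 (0.43 ± 0.11), with edgeR adjusted p of 0.361, 0.088, 0.0806 and 0.092. Polr1c (0.01 ± 0.14), Ubtf (-0.01 ± 0.10), Nip7 (0.03 ± 0.11) and Nop14 (0.04 ± 0.10) had values near 0.

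Beyond these genes, 103 other factors of ribosome biogenesis were found in the files, and 102 were tested. With edgeR, 20 fell at T1 (19.6%, near the 16.8% of all genes) and 39 at T2 (38.2%, beside 21.8%), 0 rose (0 unadjusted and 0 with DESeq2), and the median log2 fold change was -0.445 and -0.468. At T3, 0 fell (7 unadjusted, 0 with DESeq2). Without T0 replicate 3, 39 fell and 3 rose at T1 and 41 fell and 4 rose at T2, beside 24.9% and 25.3% of all genes that fell, and the medians were -0.167 and -0.17. Among 9 tested genes of Pol I, 3 fell at T1. They include the subunit Polr1d (88 ± 24 CPM at T0, SD, n = 3, and 54 ± 6 at T1, n = 3; log2 fold change -0.69 ± 0.21, edgeR, adjusted p = 0.0431) and Taf1d, a part of the Pol I promoter factor (-0.83 ± 0.18, edgeR, adjusted p = 0.0147). These had -0.44 and -0.63 without T0 replicate 3. Of 47 small-subunit factors 11 fell at T1 (23.4%), among them Emg1 (-0.83 ± 0.23, and -0.52 without T0 replicate 3) and Imp3 (-0.62 ± 0.18 and -0.42), and Rrp7a had -0.34 ± 0.23. Of 46 large-subunit factors 6 fell at T1, or 13%, beside 16.8% of all genes (20 lower unadjusted, 11 with DESeq2). Their median log2 fold change was -0.46. Without T0 replicate 3, 18 fell and 2 rose, beside 24.9% and 25.2% of all genes, and the median was -0.196. The 3 with the highest levels, Rrp1, Senp3 and Eif6, had -0.14, -0.36 and -0.16 and passed no test. Without T0 replicate 3 they had -0.05, -0.15 and 0.16, so Eif6 turned its direction.

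The other genes of the Myc network went both ways. Of 13 tested with edgeR, 1 fell and 2 rose at T1, beside 2078 and 1871 of all 12364 genes tested. At T2, 2 fell and 4 rose, beside 2751 and 2704 of 12607. At T3 0 passed (1 lower and 2 higher unadjusted, 0 lower and 1 higher with DESeq2). When T0 replicate 3 was left out, 2 fell and 5 rose at T1, beside 24.9% and 25.2% of all genes. At T2 these were 3 and 5, beside 25.3% and 26.7%. Counts this small do not show a shift of these genes as a group. Max, which Myc needs to bind DNA, had 84 ± 1 CPM at T0 (SD, n = 3) and 105 ± 10 at T1 (n = 3), a log2 fold change of 0.32 ± 0.11 (edgeR, adjusted p = 0.0636) that was called without T0 replicate 3 (0.32; edgeR, adjusted p = 0.0219). Mlx (-0.29 ± 0.23) and Trrap (0.03 ± 0.25) passed no test, and without that library both changed sign (0.04 and -0.17). The genes called at T1, named here after their values were seen, were Mxd3, a Max partner known from dividing cells (-2.55 ± 0.31), Mnt, a Max partner that represses (0.58 ± 0.15), and Mycl1, the third Myc gene (1.96 ± 0.30). The level of Mycl1 was 14.3 ± 5.6 CPM at T0 and 56.0 ± 7.4 at T1 (SD, n = 3 and 3; edgeR, adjusted p = 0.00437). At T2 the same Mnt and Mycl1 rose (0.49 and 1.97) with Mxd1 (1.27) and Mxd4 (0.90, and 0.55 without T0 replicate 3), both repressors of Myc targets, and Mxd3 and Zbtb17 fell (-1.91 and -0.52).

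Genes that Myc is known to raise outside the ribosome fell for the most part at T1 and T2. With edgeR, 20 of 24 fell at T1 and 20 at T2, beside 16.8% and 21.8% of all genes, with medians of -0.987 and -1.103. At T3 0 fell (11 unadjusted, 7 with DESeq2), beside 1.41%. Without T0 replicate 3 these counts were 21, 20 and 7, beside 24.9%, 25.3% and 8.49%, with medians of -0.727 at T1 and -0.744 at T2. Ran, a GTPase of nuclear transport, fell by 1.32 ± 0.30 at T1 (-0.87 without T0 replicate 3), whereas Cdk4 (-0.18 ± 0.14) and Nme1 (-0.64 ± 0.23) passed no test. Nme1 was called at T1 without that library, at -0.34 (edgeR, adjusted p = 0.0147). Of the proliferation genes, 15 of 15 fell at T1 and T2, also without T0 replicate 3. Their summed level, like that of the 39 genes, was highest in T0 replicate 3, lower at T1 and T2 and in between at T3. It was 2844 to 4896 CPM at T0, 476, 352 and 275.5 in T1 replicates 1 to 3, 335 to 587 at T2, and 859 and 1662 in T3 replicates 1 and 4. From T1 to T2 the median log2 fold change was 0.467 for the proliferation genes and -0.00221 for the 38 genes tested. Top2a, Ccna2 and Cdk1, which act in untangling DNA and in driving the cell cycle, fell at T1, with log2 fold changes of -3.68, -3.53 and -3.565. The 39 genes summed to 5967, 6159 and 10620 CPM at T0, 3706 to 4028 at T2, and 4456 and 5065 in T3 replicates 1 and 4. In T1 replicates 1 to 3 they summed to 3894, 4025 and 4136 CPM, the opposite order to the proliferation genes. The part of proliferation in the levels of the 39 genes was not tested.

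The markers of cell types bear on the labels. All 6 markers of neural progenitors were present in every group, summing to 6255 to 8754 CPM at T0 and 6813 to 7238 at T3, led by Vim, Fabp7 and Olig2. With edgeR, 5 of 5 neuron markers tested rose at T1, where 1871 of all 12364 genes did. In the T2 comparison 6 of 6 rose, beside 2704 of all 12607 genes. For T3 the count was 3 of 7 markers, beside 421 of all 12721 genes. The sum of the neuron markers ran from 893.5 to 966 CPM at T0 and from 2060 to 2610 at T1. At T3 it was 2726 CPM in replicate 1 and 1697 in replicate 4, the library with the higher summed level of the 39 genes, of Myc and of the proliferation genes. Gad1, the enzyme that makes GABA, rose by 3.75 ± 0.38 at T1, with Tubb3 and Mtap2, while Gad2 and Stmn2 stayed at 3 counts or fewer in every library. Astrocyte markers summed to 1879 to 2566 CPM at T0 and to 1305 and 1336 at T3. Aldoc, S100b and Gfap were the highest in FPKM at T0, and Gjb6 stayed at 3 counts or fewer. Most of the sum was Aldoc, with means of 2062 CPM at T0 and 1142 at T3. At T3 0 of 5 tested were called with all libraries. Without T0 replicate 3, 4 fell and 1 rose, beside 8.49% and 9.94% of all genes. The 1 that rose was S100b, with means of 53.4 CPM at T0 and 110 at T3 over all libraries. Oligodendrocyte markers summed to 186 CPM in T0 replicate 3, 350 and 370 in the other T0 libraries, and 327 to 508 later, nearly all of it Cnp, with Mag at 3 counts or fewer. None of the 5 microglia markers passed 3 counts in any library, and the 6 endothelial and fibroblast markers summed to at most 2.70 CPM. The part of these cell types in the levels of the 39 genes was not tested.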

How the data were processed

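The authors made polyA libraries (TruSeq RNA v2), sequenced them on a HiScanSQ (CASAVA 1.8) and aligned reads to mm9 with TopHat2 2.0.6 and Bowtie 0.12.7.0. The submitters' processing notes also name HTSeq 0.6.0 and DESeq2 1.0.0. The authors deposited raw counts per gene for each of 12 libraries and one table of FPKM values, whose tool is not given in the sources used here. The strand setting is not given either. Entries of the count tables that name no gene (5) were left out: of uniquely aligned reads, 13.3% to 24.06% lay outside genes and 0.6805% to 0.903% were ambiguous, and 25.99% to 38.96% of all entries aligned to several places.

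The genes and lists were chosen with earlier results of these data known. Fits used the libraries of the 2 groups compared, over all genes past filterByExpr, with TMM scaling, edgeR 4.0.16 quasi-likelihood tests in R 4.3.3 and Benjamini-Hochberg adjustment at 0.05 (SE, the log2 fold change over the root of F). The script was tested on simulated data. DESeq2 1.42.0, limma 3.58.1 on log2(FPKM + 1) and the other settings of the closing section were alternatives. All genes of the list were named by role, those with the largest and smallest change at T1 and T3 in each role in full, and of every other list the 3 genes highest in FPKM at T0. Libraries of T1 and T2 with the same replicate number had correlated deviations from their groups (0.32, 0.468 and 0.233), which alone do not show that they were paired. Gene positions are from GENCODE vM1 (mm9), promoters from RefSeq (GRCm38.p6). Other copies of coding sequences were looked for with minimap2.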

Additional observations from a re-analysis of the deposited data

Results flagged for a closer look

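The level of Wdr12 in T2 replicate 3, 28.1 CPM, stood apart from the other T2 libraries, which had 25.5 to 25.9 CPM. It was flagged for its gap to the nearest library, 0.847 of the range of the group. Only T2 has the 4 libraries this comparison needs. It was made for 39 genes, of which 1 was flagged, and chance flags about 1 in 20 groups.

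Myc differed between T2 and T3, by 0.79 on the log2 scale. The test of the difference between these groups, which share no library, passed its threshold in edgeR (adjusted p = 0.0492) for Myc and for no other of the 38 genes. T3 has 2 libraries, and the values without each stand with the result above.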

How the results depend on the processing

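Values of single genes under the alternatives (2584 in all) kept their direction and their side of the threshold in 2346, lost a call in 138 and gained one in 98. A called value changed sign in 2, both of Ubtf at T1, with 0.21 from libraries numbered 1 and 2 and 0.231 without T0 replicate 3 (leaving out one library in turn gave -0.137 to 0.231); 148 other sign changes were of values called in neither fit. With libraries numbered 1 and 2 alone, 32 genes fell and 2 rose at T1, beside 3729 and 3733 of 12468 genes. At T2, 1 rose, beside 3441 of 12504. With limma on the FPKM values, 10 genes fell at T1 for either pseudocount, beside 1388 and 1416 of all 13254 genes. At T3 0 fell, beside 59 and 77 of 13245. The FPKM values moved the median of all genes to -0.172 at T2 and -0.273 at T3 (log2). DESeq2 called 5 lower at T3, beside 942 of 12721 genes, and 4 higher from T2 to T3, beside 440 of 12599. One fit of all 12 libraries called 13 and 0, beside 1865 and 18 of 12952. The main fits called 179 of 12721 genes lower at T3 and 63 of 12599 higher from T2 to T3. With DESeq2's size factors in edgeR and with limma on FPKM, 0 genes rose from T2 to T3. The cause of these differences was not tested. Leaving out one library in turn gave 6 to 29 genes lower and 0 to 2 higher at T1, 18 to 33 and 0 to 1 at T2, 0 to 6 and 0 to 1 at T3, and 0 to 7 higher from T2 to T3; where T3 kept 1 library, it was assumed to vary like the other group. For T0 and the later groups the correlations of deviations by shared number were -0.00395, 0.163 and 0.103 with T1 and -0.104, 0.023 and -0.168 with T2. With T3, T0 shared one number, at 0.493. Between T2 and T3 the values were -0.074 and 0.293. Values this mixed do not show which groups were paired by number. With the replicate block 15 genes fell at T1, beside 1724 of all 12364 genes. At T2, 12 fell in a block fit that also leaves out T2 replicate 4, beside 1560 of 12416. Without that library 21 fell unblocked, beside 2152 of 12416. From T2 to T3 the block fit holds libraries 1 and 4 of each group and called 0 higher, as did the same libraries unblocked, an alternative chosen after seeing the data. From T1 to T2 it called 0 higher, and the block changed no other call of a count. No paired analysis was possible for T3 against T0 because they share 1 number. With 2 libraries at T3 and standard errors there of up to 0.45, a missed threshold does not show that a level equalled that of T0.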
